A study of Bos taurus with 16 samples.

Results

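The genes described here are 10 markers and regulators of blood vessels, followed through the round and sirloin muscles of newborn Hanwoo calves. They are PECAM1, CDH5 and VWF, which mark the endothelial cells that line vessels, the VEGF receptors KDR and FLT1, the angiopoietin receptor TEK and its relative TIE1, and the growth factors VEGFA, VEGFB and ANGPT1. They were given by name, with earlier results of these data known, and each matched 1 of the 34109 genes in the deposited tables by its NCBI gene ID. Muscle was taken right after birth from 8 calves of a Korean beef breed. The 4 control calves had dams fed 100% of their nutritional requirement, and the 4 treated calves had dams fed 150% in mid to late pregnancy. Round and sirloin muscle of each calf gave 1 RNA-seq library each, 16 in all. No genotype or allele is given for the animals, whose calves the study's methods describe as male. The labels give both muscles of a calf the same replicate number, so the calf was the unit of replication. Pieces of whole muscle were sequenced, and how they were trimmed of fat or connective tissue was not given in the sources used here.

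Capillaries are tubes of endothelial cells that run along the muscle fibres and bring them oxygen, and they are laid down with the fibres before birth. VEGFA, made largely by muscle fibres and induced by low oxygen, acts through KDR, the receptor that carries most of its growth signal. FLT1 binds VEGFA more tightly but signals weakly, and its soluble form is a decoy that takes VEGFA up, while VEGFB binds FLT1 and not KDR. ANGPT1, made by cells around the vessel, activates TEK and steadies the vessel wall, and TIE1 modulates TEK. In whole muscle, fewer endothelial cells and less RNA per endothelial cell cannot be told apart.

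The libraries of round muscle held 44473011 to 72446933 counts each, and those of sirloin muscle 44863173 to 72165291. The least covered of the 10 genes, ANGPT1, had 25 to 848 counts. The 8 listed genes that define skeletal muscle fibres, the labelled tissue, summed to between 54087 and 96490 TPM (transcript share of a library, corrected for gene length). Control replicate 2 and treated replicate 4 stood apart in markers of other cells. In treated replicate 4 the sirloin library had 951 TPM summed over 4 adipocyte genes, among them 678 TPM of ADIPOQ, against at most 3.10 TPM summed in each of the other 15 libraries. In control replicate 2 the summed level of 6 fibroblast genes was 2141 TPM in round muscle, where the other libraries had 268 to 503 TPM. The collagen genes COL1A1 and COL1A2 had 703 and 669 TPM in that library. PDGFRA, also on the list, had 8.75 TPM there and up to 15.6 TPM in another library. In sirloin muscle the sum was 583 TPM in this calf and 740 TPM in treated replicate 4, and 174 to 291 TPM in the other 6 calves. The TPM of control replicate 2 summed to 1000000 in both muscles and those of all other libraries to 999756 to 999858, and whether this calf was processed differently was not given in the sources used here. Values for these calves are therefore given beside the results they touch.

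In order of mean level over the 16 libraries, VEGFA had 105 TPM ± 36.1 (SD), VEGFB 34.1 ± 8.39 and PECAM1 28.0 ± 5.22. FLT1 followed with 15.7 TPM ± 8.61, KDR with 13.03 ± 3.57 and CDH5 with 10.1 ± 2.45. TEK had 7.75 TPM ± 1.37, VWF 7.58 ± 2.51, TIE1 4.55 ± 1.60 and ANGPT1 2.92 ± 2.57. VEGFA was above VEGFB in 16 of 16 libraries. FLT1 was above KDR in 9 of 16 and TEK above VWF in 7 of 16, so the order within these 2 pairs was not fixed beyond the spread. The calves differed least in TEK and PECAM1, with coefficients of variation of 17.7% and 18.7%, and most in FLT1 and ANGPT1, with 55.0% and 88.1%. Among 11899 genes with a mean of at least 1 TPM the median coefficient of variation was 31.5%, and 15.7% of the genes varied more than FLT1 and 4.73% more than ANGPT1.

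**Figure D1:**
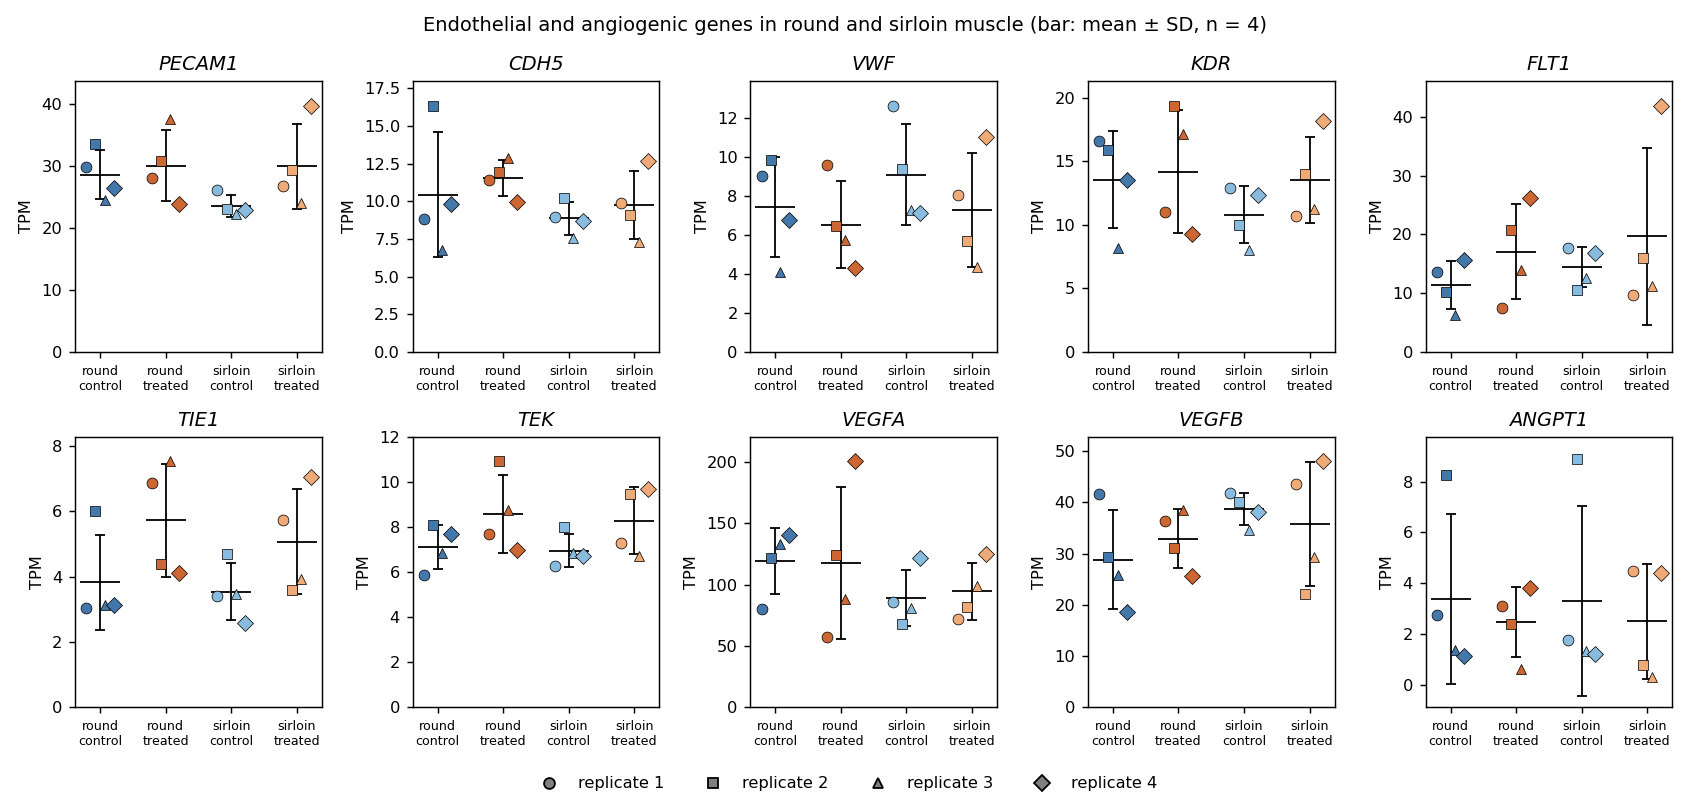
Level of each of the 10 genes in TPM (vertical axes, linear) in the 4 groups of calves. Points are libraries, their shape gives the replicate number, and horizontal lines with error bars are the mean ± SD of 4 calves. Control and treated calves overlap for every gene in both muscles, FLT1 reaches 41.9 TPM in 1 treated sirloin library, and ANGPT1 is at 8.27 and 8.88 TPM in both muscles of control replicate 2.

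The junction and surface markers of the endothelium did not differ detectably between the diets. PECAM1 (gene ID 282303), an adhesion molecule at the contacts between endothelial cells, had 29.7, 33.5, 24.5 and 26.4 TPM in the round muscle of control calves 1 to 4 and 28.0, 30.7, 37.5 and 23.8 TPM in that of treated calves 1 to 4. PECAM1 in sirloin muscle was at 26.0, 23.0, 22.1 and 22.8 TPM in control calves, and at 26.7, 29.2, 23.97 and 39.7 TPM in treated calves. The groups overlapped in both muscles, and the highest value of all belonged to the sirloin library with the adipocyte genes. The log2 fold change of treated over control calves was -0.02 in round muscle (95% interval -0.49 to 0.45) and 0.16 in sirloin muscle (-0.29 to 0.62). CDH5 (414735), the cadherin that seals endothelial junctions, ranged from 6.79 to 16.3 TPM in round control, 9.96 to 12.9 in round treated, 7.55 to 10.2 in sirloin control and 7.28 to 12.7 TPM in sirloin treated calves. Its highest value was that of control replicate 2 in round muscle.

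VWF (280958), the clotting protein that endothelial cells store, had 9.02, 9.84, 4.11 and 6.76 TPM in round control and 9.58, 6.43, 5.76 and 4.301 TPM in round treated calves. VWF in sirloin muscle was at 12.6, 9.36, 7.26 and 7.13 TPM in control calves, and at 8.04, 5.69, 4.35 and 11.002 TPM in treated calves. Of the 10 genes it had the smallest unadjusted p for the diet in sirloin muscle, with a log2 fold change of -0.51 (SE 0.318, 95% interval -1.21 to 0.19, edgeR adjusted p = 0.876), and of -0.78 to -0.26 when 1 calf was left out, the former without treated replicate 4. Platelets also carry VWF. Of 7 listed platelet genes PPBP was at 0 in all libraries, and the summed level of the list was 2.11 to 7.66 TPM, highest in the round library of control replicate 2. The listed genes differed in how they varied over the round control calves. ITGA2B had 2.83 ± 0.199 CPM there (SD, n = 4, counts scaled to normalised library sizes), and ITGB3 had 7.90 ± 7.78 CPM. The sum is therefore not a uniform measure of platelets. The part of platelets in the level of VWF was not tested.

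The VEGF receptors differed from calf to calf in different ways. KDR (407170) had 16.6, 15.9, 8.20 and 13.6 TPM in round control and 11.003, 19.4, 17.1 and 9.25 TPM in round treated calves. In sirloin muscle KDR had 12.9, 10.004, 7.99 and 12.3 TPM in control calves, and 10.7, 14.03, 11.3 and 18.2 TPM in treated calves. The groups overlapped, and control replicate 3 was lowest in both muscles.

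FLT1 (503620) had 13.6, 10.1, 6.36 and 15.6 TPM in round control and 7.48, 20.7, 13.9 and 26.1 TPM in round treated calves. FLT1 in sirloin muscle was at 17.7, 10.5, 12.5 and 16.9 TPM in control calves, and at 9.74, 16.05, 11.1 and 41.9 TPM in treated calves. Treated replicate 4 was thus highest in both its muscles, by a wide margin in the sirloin library. The adipocyte genes summed to 951 TPM in that sirloin library and to 1.79 TPM in the round library of the same calf. The part of adipose tissue in these FLT1 values was not tested. Without treated replicate 4 the log2 fold change of FLT1 in sirloin muscle went from 0.27 to -0.41, and neither value passed the test. The reference places 2 microRNA genes inside FLT1, and both had 0 counts in all libraries.

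The angiopoietin receptors were among the lower members. TIE1 (280941) had 3.04, 6.02, 3.15 and 3.13 TPM in round control and 6.88, 4.39, 7.54 and 4.12 TPM in round treated calves. TIE1 in sirloin muscle was at 3.42, 4.70, 3.47 and 2.58 TPM in control calves, and at 5.74, 3.59, 3.93 and 7.05 TPM in treated calves. It had the smallest unadjusted p of the 10 genes for the diet in round muscle, where the log2 fold change was 0.53 (SE 0.304, 95% interval -0.14 to 1.19, edgeR adjusted p = 0.864). All treated round libraries were above 3 of the 4 control libraries, and control replicate 2 overlapped them. TEK (280939) ranged from 5.87 to 8.09 TPM in round control, 6.97 to 10.9 in round treated, 6.26 to 8.02 in sirloin control and 6.73 to 9.68 TPM in sirloin treated calves. The reference places IFT74, which had 300 to 710 counts, over TEK, and since the use of strand in counting was not given in the sources used here, some shared reads may be assigned to either gene.

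Among the ligands VEGFA (281572) was the most abundant. It had 80.3, 122, 133 and 140 TPM in round control and 57.1, 124, 88.4 and 200 TPM in round treated calves, where the highest library had 3.51 times the level of the lowest. In sirloin muscle VEGFA had 86.1, 67.9, 81.2 and 121 TPM in control calves, and 72.3, 82.0, 98.6 and 125 TPM in treated calves. Treated replicate 4 and control replicate 4 were the 2 highest calves in both muscles. The log2 fold change of treated over control calves was -0.11 in round muscle (95% interval -0.89 to 0.68) and -0.09 in sirloin muscle (-0.63 to 0.45). VEGFB (282121) ranged from 18.6 to 41.5 TPM in round control, 25.6 to 38.5 in round treated, 34.6 to 41.9 in sirloin control and 22.1 to 48.03 TPM in sirloin treated calves.

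ANGPT1 (282140) had 2.74, 8.27, 1.37 and 1.13 TPM in round control and 3.12, 2.39, 0.607 and 3.80 TPM in round treated calves. ANGPT1 in sirloin muscle was at 1.78, 8.88, 1.35 and 1.21 TPM in control calves, and at 4.48, 0.800, 0.308 and 4.41 TPM in treated calves. The highest library had 28.8 times the level of the lowest, and both extremes were the same calf in round as in sirloin muscle: control replicate 2 was highest and treated replicate 3 lowest. Control replicate 2 also had the highest sum of fibroblast genes in round muscle. In sirloin muscle treated replicate 4 had the higher sum (740 against 583 TPM) and the lower ANGPT1 (4.41 against 8.88 TPM). The part of fibroblasts in the ANGPT1 level was not tested.

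Between the diets, none of the 10 genes passed the test in either muscle. With edgeR's quasi-likelihood test the adjusted p of the 10 genes was 0.864 to 0.996 in round and 0.876 to 0.9998 in sirloin muscle, and 0 of 10 had an unadjusted p under 0.05. DESeq2 and limma-voom also called 0 of 10 after adjustment, against 0.211% and 0.00461% of all genes in round and 0.0607% and 0% in sirloin muscle. Over all genes tested, edgeR called 0.0185% in round and 0.00918% in sirloin muscle after adjustment, and 4.41% and 3.91% had an unadjusted p under 0.05. Groups that did not overlap occurred in 0 of 10 genes in each muscle, against 1.82% and 1.63% of all genes. The median log2 fold change of the 10 genes was 0.03 in round and 0.02 in sirloin muscle, beside 0.02 and 0.03 over all genes, with 5 of 10 above 0 in each muscle.

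The 95% intervals show which differences the data could not tell from none. For PECAM1 they allowed a treated level between 0.714 and 1.36 times that of control calves in round muscle and between 0.817 and 1.53 times in sirloin muscle. For VEGFA they allowed 0.540 to 1.60 times in round and 0.646 to 1.36 times in sirloin muscle. They were widest for ANGPT1, at 0.281 to 1.93 times in round and 0.186 to 2.54 times in sirloin muscle. The diet effect did not differ detectably between the muscles for any of the 10 genes either. In edgeR's interaction test, fitted without a term for the calf, 0 of 10 were called and the smallest unadjusted p was 0.340. Over all genes 0% were called and 2.78% had an unadjusted p under 0.05, while DESeq2 and limma-voom also called 0. With the calf as a replicate block, 0 of the 10 genes and 1 of all 22877 genes were called.

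**Figure D2:**
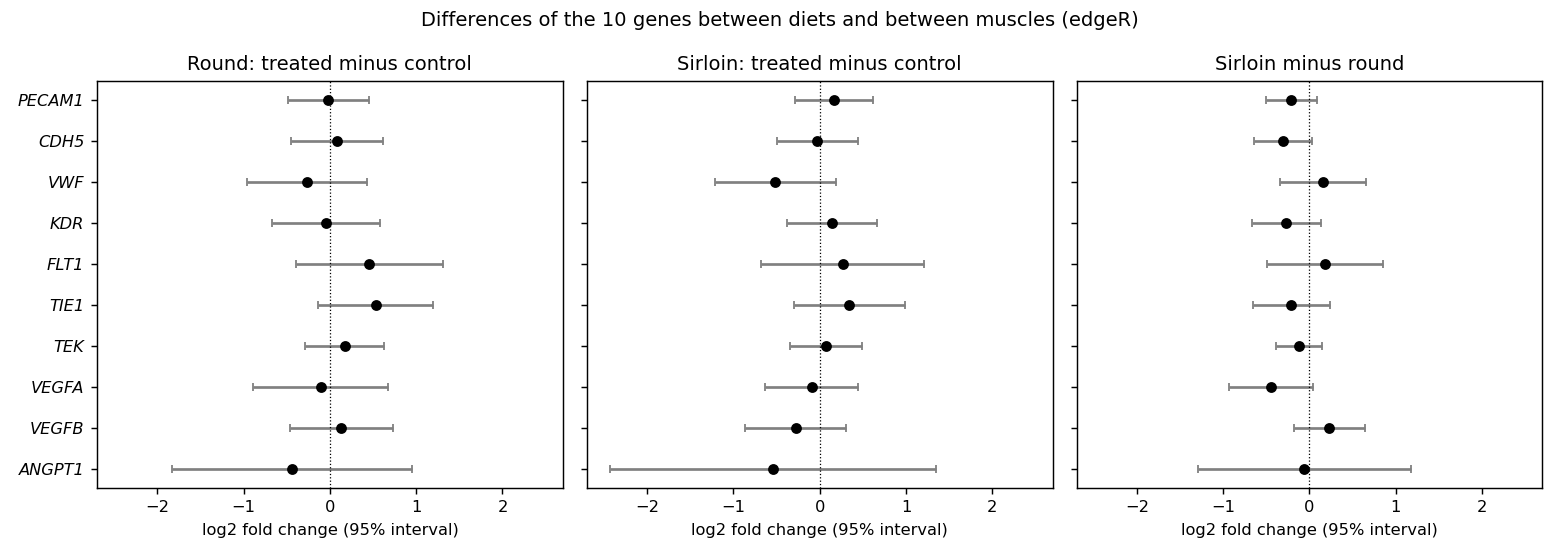
Log2 fold changes (horizontal axes) of the 10 genes with 95% intervals from edgeR, for treated minus control calves in round (left) and sirloin muscle (middle, 4 calves against 4 each) and for sirloin minus round muscle (right, 16 libraries, without a term for the calf). Every interval crosses 0, ANGPT1 has the widest, and 7 of 10 estimates lie below 0 between the muscles.

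Between the muscles, 7 of the 10 genes were lower in sirloin than in round muscle, and none passed the test. VEGFA had a log2 fold change of sirloin over round of -0.45 (SE 0.230, 95% interval -0.93 to 0.04) and CDH5 of -0.31 (SE 0.159, -0.64 to 0.02), and both had an edgeR adjusted p of 0.811. The median of the 10 genes was -0.16 beside -0.00 over all genes, of which 0.0612% were called and 6.33% had an unadjusted p under 0.05. DESeq2 and limma-voom called 0 of the 10, and 0.372% and 0.0918% of all genes. With the calf as a replicate block, 109 genes in place of 14 were called over all genes, which is 0.476%, and still 0 of the 10. In that fit 2 of the 10 had an unadjusted p under 0.05, as did 11.2% of all genes: VEGFA with a log2 fold change of -0.39 (edgeR adjusted p = 0.308) and CDH5 with -0.31 (edgeR adjusted p = 0.411).

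Compared within each calf on the TPM scale, PECAM1 and KDR were lower in sirloin than in round muscle in 7 of 8 calves. The exception for both was treated replicate 4, with log2 differences of 0.74 and 0.97, in the sirloin library that held the adipocyte genes. Without that calf, edgeR's fit on counts with no term for the calf gave log2 fold changes of sirloin over round of -0.34 for PECAM1, -0.42 for KDR and -0.41 for CDH5. Each had an unadjusted p under 0.05, with edgeR adjusted p of 0.655, 0.724 and 0.648. The share of all genes at that unadjusted p in this fit is not given here, and it was 6.33% with all calves. FLT1 and VEGFB went the other way and were higher in sirloin muscle in 6 of 8 calves.

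The capillary content of a library was summarised by an index, the mean of the centred log2 levels of PECAM1, CDH5, VWF, KDR, FLT1, TEK and TIE1. It is given as a description with no test. In round muscle it was -0.03, 0.27, -0.55 and -0.05 in control calves 1 to 4 and 0.03, 0.28, 0.27 and -0.10 in treated calves 1 to 4. The sirloin libraries had 0.05, -0.05, -0.28 and -0.16 for the control diet, against -0.04, 0.00, -0.31 and 0.66 for the treated diet. On a linear scale the round libraries lay between 0.684 and 1.22 times the overall mean and the sirloin libraries between 0.809 and 1.58 times. Group means ± SD were -0.09 ± 0.337 in round control, 0.12 ± 0.187 in round treated, -0.11 ± 0.141 in sirloin control and 0.08 ± 0.411 in sirloin treated calves (n = 4 each), and the diets overlapped in both muscles. The difference of treated minus control calves was 0.21 in round and 0.19 in sirloin muscle. Without control replicate 3 that in round muscle was 0.06, and on the TMM CPM scale (counts scaled to normalised library sizes, without gene length) the differences were 0.10 and 0.02.

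The lowest round library was that of control replicate 3, which was lowest of 8 in 4 of the 7 genes, CDH5, KDR, FLT1 and VWF. The highest sirloin library, that of treated replicate 4, was highest in 6 of the 7 genes, all but VWF. Its 7 genes summed to 140 TPM, where the other sirloin libraries had 67.8 to 87.9 TPM. It was the same library that held adipocyte genes. Without that calf the difference of treated minus control calves in sirloin muscle went from 0.19 to -0.00, and the difference of sirloin minus round within calves from -0.03 to -0.15. The latter was -0.11 on the TMM CPM scale, and it was above 0 without control replicate 2, treated replicate 2 or treated replicate 3, at most 0.05. Whether vessels of adipose tissue in the sample account for the high value was not tested.

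Between the muscles of a calf the index had a Pearson r of -0.00 over the 8 calves (Spearman's rho -0.07), a value that depended on single calves. It was 0.346 without treated replicate 4, whose sirloin library held the adipocyte genes, and -0.54 without control replicate 3. Without treated replicate 4 the r of single genes between the muscles was 0.815 for KDR, 0.824 for TEK and 0.775 for TIE1, against 0.176, 0.491 and 0.498 over all 8 calves. None of these passed (exact permutation test, adjusted p = 0.149 each), and PECAM1 reached 0.181. The median r of all genes was 0.597 over all 8 calves. Treated replicate 4 was 7th of 8 in round and first in sirloin muscle, where it was 0.76 higher. Within a muscle it followed other endothelial genes that had no part in it. Its r with the summed level of 24 other listed endothelial genes was 0.948 in round and 0.974 in sirloin muscle, over 8 libraries that share their depth and composition. That sum ran from 218 to 410 TPM in round and from 238 to 511 TPM in sirloin muscle, and in both measures treated replicate 4 was highest in sirloin and control replicate 3 lowest in round muscle.

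**Figure D3:**
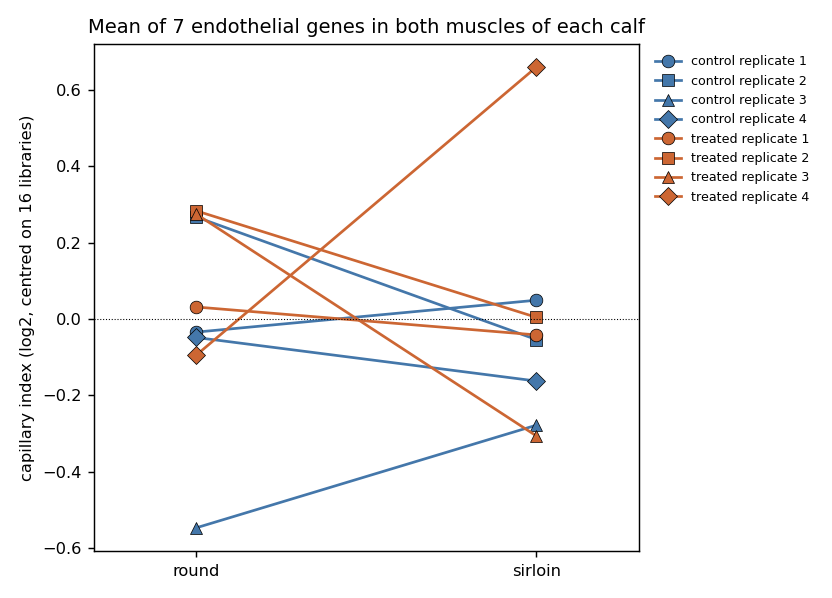
Capillary index (vertical axis, log2, mean of 7 endothelial genes centred on the 16 libraries) in round and sirloin muscle (horizontal axis), with a line for each calf. Lines cross: treated replicate 4 goes from -0.10 in round to 0.66 in sirloin muscle, and control replicate 3 has the lowest value, -0.55 in round muscle.

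The 7 endothelial genes did not move as a unit. Of their 21 pairs, 18 had r above 0 over the 8 round libraries, with a median of 0.477, and all 21 did over the sirloin libraries, with a median of 0.613. PECAM1 and KDR were the closest pair in both muscles (r = 0.811 and 0.859). In round muscle the r of a gene with the index of the other 6 was lowest for FLT1 (0.06), followed by VWF (0.326) and TIE1 (0.439), and highest for CDH5 (0.861). In sirloin muscle FLT1 had r = 0.725 but a rho of 0.119, and the single library of treated replicate 4 was highest in both measures.

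VEGFA was then set against its receptors within each library, as a ratio of TPM. The ratio of VEGFA to KDR was 4.84, 7.64, 16.2 and 10.3 in round control and 5.19, 6.42, 5.16 and 21.7 in round treated calves. The sirloin ratios were 6.68, 6.79, 10.2 and 9.85 for the control diet, against 6.75, 5.84, 8.74 and 6.88 for the treated diet. VEGFA thus exceeded KDR in all 16 libraries, over a wider range in round than in sirloin muscle. The 2 highest round ratios were those of control replicate 3 and treated replicate 4, which also had the 2 lowest KDR levels in round muscle, and treated replicate 4 had the highest VEGFA.

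The ratio of VEGFA to FLT1 was 5.90, 12.02, 20.9 and 9.01 in round control and 7.63, 6.01, 6.34 and 7.67 in round treated calves. The sirloin ratios of VEGFA to FLT1 were 4.86, 6.44, 6.49 and 7.19 for the control diet, against 7.43, 5.11, 8.85 and 2.98 for the treated diet. It was lower in sirloin than in round muscle in 7 of 8 calves, with a mean log2 difference of -0.54 ± 0.719 (SD, n = 8, two-sided exact permutation test, p = 0.0703, adjusted p over the 5 ratios 0.169). The ratio of FLT1 to KDR, from 0.636 to 2.82 in round and from 0.909 to 2.31 in sirloin muscle, was higher in sirloin muscle in 7 of 8 calves. Its mean log2 difference was 0.41 ± 0.415 (SD, n = 8, two-sided exact permutation test, p = 0.0391, adjusted p 0.169), so it did not pass after adjustment. Treated replicate 4, the exception, had the highest FLT1 to KDR ratio in both muscles.

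**Figure D4:**
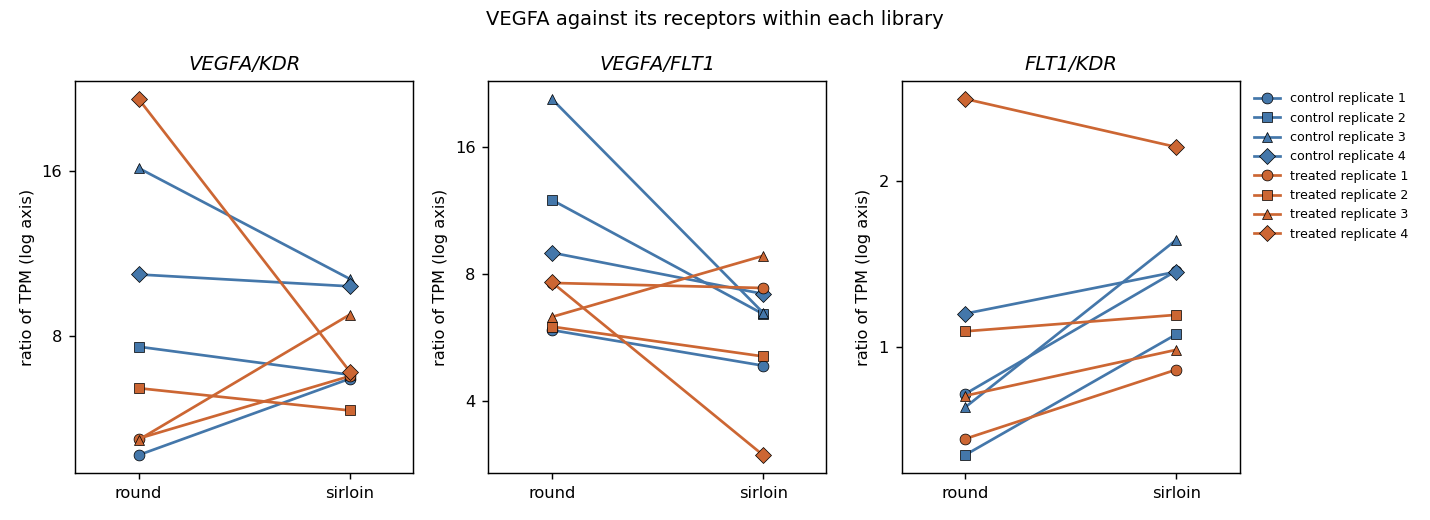
Ratios of TPM (vertical axes, logarithmic) of VEGFA to KDR, VEGFA to FLT1 and FLT1 to KDR in round and sirloin muscle, with a line for each calf. The VEGFA to KDR ratio spreads from 4.84 to 21.7 in round and from 5.84 to 10.2 in sirloin muscle, and FLT1 to KDR rises to the right in 7 of 8 calves.

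By diet, none of the 10 tests of a ratio in a muscle passed. The smallest p was that of VEGFA to FLT1 in round muscle, with mean log2 ratios of 3.43 ± 0.765 in control and 2.78 ± 0.181 in treated calves (SD, n = 4 each, two-sided exact permutation test, p = 0.171, adjusted p = 0.8286). The smallest p that 4 calves against 4 allow in this test is 0.0286. The ratio of VEGFA to VEGFB ranged from 1.57 to 7.83 in round and from 1.66 to 3.71 in sirloin muscle. That of ANGPT1 to TEK ranged from 0.0459 to 1.11 over all libraries, and ANGPT1 exceeded its receptor in control replicate 2 alone, in both its muscles.

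Across calves, none of the 4 relations of VEGFA with its receptors passed adjustment over the 20 relations computed. In sirloin muscle its Pearson r with FLT1 was 0.739 (n = 8, exact permutation p = 0.0252, adjusted p = 0.168) and Spearman's rho was 0.786 (exact permutation p = 0.0279, adjusted p = 0.279). Leaving out the 2 calves farthest from the median of FLT1, treated replicates 1 and 4, lowered r to 0.456. In round muscle the r of VEGFA with FLT1 was 0.531 (n = 8, exact permutation p = 0.173, adjusted p = 0.565; rho 0.524, p = 0.197, adjusted p = 0.562; r = 0.674 without control replicate 3 and treated replicate 4). With KDR, r was 0.621 in sirloin muscle (n = 8, exact permutation p = 0.101, adjusted p = 0.503; rho 0.714, p = 0.0576, adjusted p = 0.332; r = 0.423 without the 2 calves farthest from the median of KDR). In round muscle the r of VEGFA with KDR was -0.28 (n = 8, exact permutation p = 0.495, adjusted p = 0.690; rho -0.38, p = 0.360, adjusted p = 0.654), and it became 0.508 without control replicate 3 and treated replicate 4. These calves were farthest from the median of KDR and had the 2 highest ratios. Each diet holds too few calves for a value of its own.

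ANGPT1 was the gene most alike in both muscles of a calf. Its r between round and sirloin muscle was 0.904 (n = 8, exact permutation p = 0.00273, adjusted p = 0.0546) and its rho 0.905 (exact permutation p = 0.00456, adjusted p = 0.0913), so it narrowly missed the threshold after adjustment. Without the 2 calves farthest from the median level in sirloin muscle, control replicate 2 and treated replicate 3, r was 0.679. Among 11892 genes with a mean of at least 1 TPM and a defined r, the median r between the muscles was 0.597, and 4.85% had a higher r than ANGPT1. FLT1 followed with r = 0.771 (n = 8, exact permutation p = 0.0163, adjusted p = 0.163; rho 0.667, p = 0.0831, adjusted p = 0.332; 0.528 without treated replicates 1 and 4). PECAM1, at -0.37, and VEGFB, at -0.12, were the 2 members with r below 0, and 98.8% and 95.5% of genes had a higher r.

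**Figure D5:**
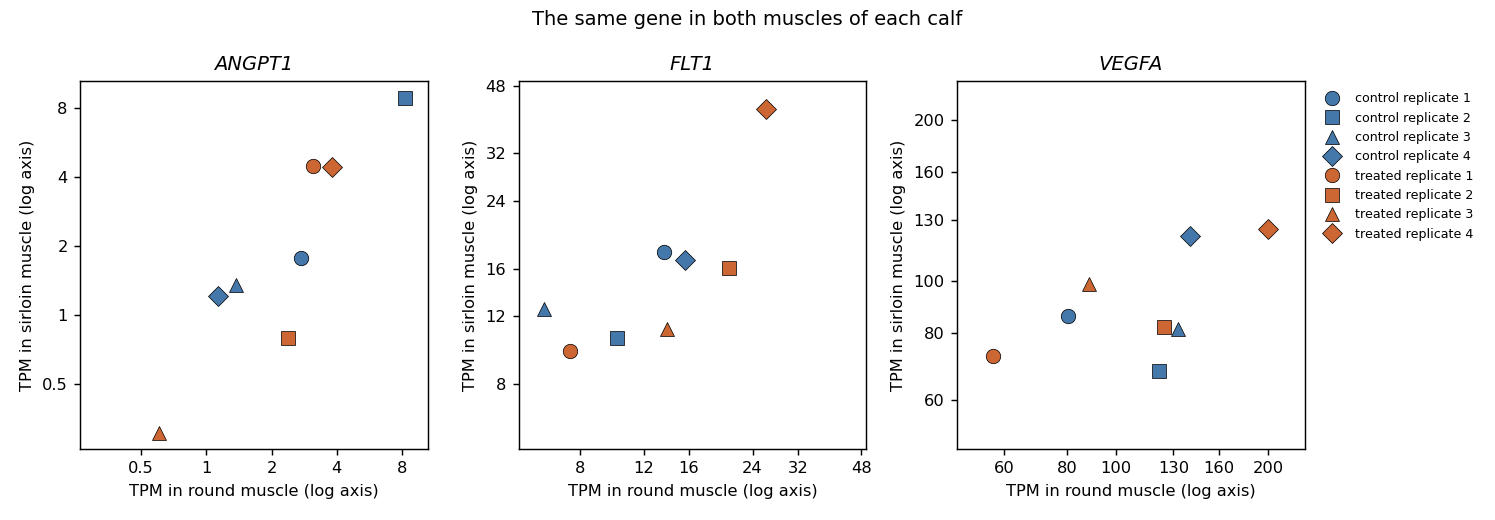
Level in sirloin muscle (vertical axes) against level in round muscle (horizontal axes) of the same calf, in TPM on logarithmic axes, for ANGPT1, FLT1 and VEGFA. Points are calves. ANGPT1 runs from 0.607 and 0.308 TPM in treated replicate 3 to 8.27 and 8.88 TPM in control replicate 2, and FLT1 is highest in both muscles in treated replicate 4.

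Hypoxia and PPARGC1A are 2 known inputs to VEGFA. The summed level of 13 hypoxia factors and targets was high in both muscles of 3 calves. Control replicate 4 had 713 TPM in its round and 897 TPM in its sirloin library, treated replicate 2 had 933 and 1745 TPM, and treated replicate 4 had 982 and 836 TPM. The other 5 calves had 398 to 668 TPM. Control replicate 4 and treated replicate 4 were also the calves with the most VEGFA, whereas treated replicate 2 had 124 TPM of VEGFA in round and 82.0 TPM in sirloin muscle. None of the 13 genes was called by diet, 10 of 13 being above 0 in round and 8 of 13 in sirloin muscle. Between the muscles HIF3A had a log2 fold change of 0.69 and was not called, but it was with the calf as a replicate block (0.89, edgeR adjusted p = 0.0434). Between the diets HIF3A had the smallest p in both muscles, with log2 fold changes of 1.56 in round (edgeR unadjusted p = 0.0376) and 0.94 in sirloin muscle (edgeR unadjusted p = 0.0771).

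PPARGC1A, a coactivator of mitochondrial genes that can induce VEGFA in muscle, had 29.4, 9.97, 132 and 97.8 TPM in round control and 6.21, 16.7, 12.4 and 10.7 TPM in round treated calves. PPARGC1A in sirloin muscle was at 185, 11.7, 34.3 and 141 TPM in control calves, and at 10.6, 8.88, 19.2 and 17.7 TPM in treated calves. Its log2 fold changes of -2.71 and -2.90 had edgeR unadjusted p of 0.00161 and 0.00203 and did not pass edgeR's test after adjustment over all genes, while DESeq2 called both (adjusted p = 0.0075 in round and 0.0127 in sirloin muscle) and limma-voom neither. The list of 3 muscle regulators of VEGFA that holds it had medians of 0.10 in round and -0.37 in sirloin muscle. The r of VEGFA with PPARGC1A over calves was 0.336 in round (n = 8, exact permutation p = 0.419, adjusted p = 0.685; rho 0.405, p = 0.327, adjusted p = 0.654) and 0.411 in sirloin muscle (n = 8, exact permutation p = 0.307, adjusted p = 0.681; rho 0.429, p = 0.299, adjusted p = 0.654). Without the 2 calves farthest from the median of PPARGC1A it was 0.0974 and 0.348.

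Of 126 genes in 16 lists of vessel, regulator and cell type genes, THBS1 was the single gene called by edgeR in any comparison. DESeq2 also called PPARGC1A in both muscles and CNN1, a smooth muscle gene, in round muscle (log2 fold change -1.78), and the replicate block called 3 listed genes between the muscles, HIF3A and the smooth muscle genes TAGLN and ACTA2. THBS1, thrombospondin 1, is a secreted inhibitor of angiogenesis that also acts on matrix and platelets. It had 45.6, 158, 69.5 and 88.4 TPM in round control and 6.58, 15.3, 7.50 and 8.61 TPM in round treated calves, so the groups did not overlap. It fell in round muscle by 3.30 on the log2 scale (SE 0.372, edgeR adjusted p = 0.0266), and DESeq2 and limma-voom called it too. The call was lost without control replicate 4 (adjusted p = 0.0602), treated replicate 1 (0.0681), treated replicate 3 (0.102) or treated replicate 4 (0.0519), with all 16 libraries in 1 fit (0.301), and without both control replicate 2 and treated replicate 4 (0.104). In sirloin muscle THBS1 ranged from 4.57 to 33.6 TPM in control and from 2.90 to 47.2 TPM in treated calves, with a log2 fold change of -0.27. The difference of the 2 effects had an unadjusted p of 0.00443 and an edgeR adjusted p of 0.9999. The other 5 inhibitors, among them COL18A1 and VASH1, were not called.

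The remaining vessel lists gave no call by edgeR, DESeq2 or limma-voom. Of 24 other endothelial genes, 15 were above 0 in round and 17 in sirloin muscle between the diets, with medians of 0.12 and 0.20, and 2 in round and 0 in sirloin muscle had an unadjusted p under 0.05, as did 4.41% and 3.91% of all genes. These 2 were the junction gene CLDN5 at 0.96 and the co-receptor ENG at -0.63 on the log2 scale. Summed over the 24 genes, the sirloin library of treated replicate 4, which held the adipocyte genes, had 511 TPM. The other treated calves had 241 to 311 TPM in sirloin muscle and the control calves 238 to 280 TPM. Between the muscles 19 of the 24 were below 0, with a median of -0.16, and 1 of them, ADGRL4, had an unadjusted p under 0.05, as did 6.33% of all genes. The 12 arterial, venous and tip cell genes had medians of -0.10 in round and -0.00 in sirloin muscle, the 5 lymphatic genes -0.17 and -0.05, and the 9 pericyte genes 0.01 and 0.14. Of 7 other VEGF and angiopoietin ligands and co-receptors, 6 were above 0 in sirloin muscle, with a median of 0.74, and 2 had an unadjusted p under 0.05 (3.91% of all genes), PGF, a ligand of FLT1, at 0.99 and NRP2, a co-receptor, at 0.74. The 7 genes summed to 43.2 TPM in the sirloin library of treated replicate 4, again the one with the adipocyte genes. They summed to 26.6 to 35.3 TPM in the other treated and to 20.3 to 28.5 TPM in control sirloin libraries. The part of that library in the sirloin medians was not tested. In round muscle the median of the 7 genes was -0.15, and ANGPT2, the antagonist of ANGPT1, had a log2 fold change of -0.36 in round and 0.52 in sirloin muscle.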

How the data were processed

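The deposited read counts are whole numbers per gene without normalization, and the deposited normalized values were used as the authors' TPM, since they summed to between 999756 and 1000000 per library (1000000 in control replicate 2 alone). The deposited comparison tables hold the diet contrasts computed by the submitters (fold changes, p-values) and were not used. The submitters' processing notes name FastQC, Trimmomatic, STAR, featureCounts, DESeq2 and the build ARS-UCD1.2, whereas the paper's methods name HISAT2, Bowtie2 and StringTie. The labels give poly(A) selection and the paper a Globin total RNA kit with removal of rRNA, and these differences were not resolved. Gene IDs were matched to symbols in a RefSeq table of ARS-UCD2.0 (30762 of 34109, 90.2%). Positions in that table gave the overlaps between genes named in the text, while the submitters name ARS-UCD1.2 for the counts.

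Counts were tested with edgeR 4.0.16 (TMM factors, glmQLFit and glmQLFTest, no covariate) in R 4.3.3 on every gene that had 1 or more counts somewhere, in each muscle for the diets and in all 16 libraries for the muscles and the interaction, two-sided, with Benjamini-Hochberg adjustment over all genes tested and a threshold of 0.05. Alternatives were DESeq2 1.42.0, limma-voom (limma 3.58.1), other scaling factors, another filter, a replicate block and leaving out each calf. Ratios, correlations and the index used log2 of TPM, with a pseudocount of 0.1 for the correlations and the index. Exact permutation tests enumerated all assignments, sign flips or pairings in Python 3.11.15 with numpy 2.4.6, and ranks for Spearman's rho came from scipy 1.17.1. The edgeR, DESeq2 and limma-voom fits of each comparison were run on simulated counts with known changes. So was edgeR's calf block between the muscles and for the interaction. The other scaling factors, the other filter, the block between the diets and the fits without 1 calf were not simulated.

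Named were the 10 genes, any listed gene past the threshold, otherwise the 2 genes of smallest p in the VEGF, hypoxia, endothelial, pericyte and inhibitor lists, of which a part is given, and the genes most like VEGFA and the index. PPARGC1A and ANGPT2 were named for their roles, and the smooth muscle genes and HBA after their values were seen. The members and lists were chosen with earlier results of these data known. The muscles of a calf paired by their numbers, as the labels have it, with correlations of 0.358 to 0.770 after removal of the group means. ICAM2 and GP1BB did not match a listed gene.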

Additional observations from a re-analysis of the deposited data

Results flagged for a closer look

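Of 44 sets of 4 libraries examined, 2 held a library far from the other 3, and chance alone flags about 1 in 20. Both belonged to control replicate 2. TIE1 was at 6.02 TPM in its round library, where the other control calves had 3.04 to 3.15 TPM. ANGPT1 was at 8.88 TPM in its sirloin library, where the other control calves had 1.21 to 1.78 TPM. The round library of this calf also had the highest summed fibroblast genes (2141 TPM), lymphatic genes (38.0 TPM) and platelet genes (7.66 TPM) of all 16 libraries. PDGFRA of the fibroblast list was not highest there, at 8.75 TPM against 15.6 TPM in another library. ITGA2B of the platelet list varied little over the round control calves, at 2.83 ± 0.199 CPM (SD, n = 4), while ITGB3 had 7.90 ± 7.78 CPM. The part of these cells in the TIE1 and ANGPT1 values was not tested.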

How the results depend on the processing

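The call of 0 of 10 genes after adjustment held in each comparison under all alternatives, with a smallest edgeR adjusted p of 0.308 over those of the diet and muscle comparisons (replicate block). Counts over all genes depended on the tool. For the diet in round muscle 4 genes became 45 with DESeq2, 1 with limma-voom, 2 with the replicate block and 0 to 3 without 1 calf. In sirloin muscle 2 became 13, 0, 0 and 0 to 1. Between the muscles 14 became 84 with DESeq2 and 109 with the replicate block, and 13 to 19 without 1 calf. For the interaction 0 became 1 with the block. The numbers carried by control and treated calves were not a pairing, with correlations of -0.30 to 0.316, and the block changed the call of none of the 10 genes, while between the muscles it called 3 listed genes (TAGLN, ACTA2 and HIF3A) that were not called without it. The number of the 10 genes at an unadjusted p under 0.05 was 0 to 1 for the diet in each muscle without 1 calf (TIE1 without control replicate 2 in round, VWF without treated replicate 4 in sirloin muscle) and 0 to 3 between the muscles. With all calves the shares of all genes were 4.41% and 3.91% for the diet and 6.33% between the muscles. Those without 1 calf are not given here.

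Log2 fold changes that changed sign without 1 calf had these ranges. In round muscle they were -0.17 to 0.040 for PECAM1, -0.066 to 0.24 for CDH5, -0.22 to 0.11 for KDR, -0.57 to 0.11 for VEGFA, -0.0052 to 0.41 for VEGFB and -0.76 to 0.32 for ANGPT1. In sirloin muscle they were -0.0051 to 0.26 for PECAM1, -0.19 to 0.084 for CDH5, -0.035 to 0.28 for KDR, -0.41 to 0.48 for FLT1, -0.014 to 0.15 for TEK, -0.26 to 0.062 for VEGFA and -0.99 to 0.57 for ANGPT1. Between the muscles they were -0.053 to 0.27 for VWF and -0.24 to 0.062 for ANGPT1. Log2 ratios by diet ran from -0.67 to 0.11 for VEGFA/KDR and -0.93 to 0.083 for ANGPT1/TEK in round, and from -0.35 to 0.17 for VEGFA/FLT1 and -0.40 to 0.052 for FLT1/KDR in sirloin muscle, and VEGFA/KDR between the muscles from -0.27 to 0.079. Correlations ran from -0.64 to 0.012 for VEGFA with KDR and -0.25 to 0.070 for ANGPT1 with TEK in round muscle, and from -0.23 to 0.55 for VEGFB with FLT1 in sirloin muscle. Between the muscles they ran from -0.62 to 0.18 for PECAM1, -0.085 to 0.50 for CDH5, -0.39 to 0.81 for KDR and -0.28 to 0.019 for VEGFB. The index difference between the muscles ran from -0.15 to 0.046. The cause was not tested. On the TMM CPM scale r between the muscles was -0.13 for TEK (0.491 on the TPM scale) and 0.018 for VEGFB. ANGPT1 passed the adjusted threshold there (r = 0.921, adjusted p = 0.0407) and with a pseudocount of 1 (r = 0.912, adjusted p = 0.0377).

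Leaving out both control replicate 2 and treated replicate 4 was added after the data were seen. It gave 0 called genes over all genes for the diet in either muscle, and at an unadjusted p under 0.05 it gave 1 of the 10 in round (TIE1), 1 in sirloin muscle (VWF) and 2 between the muscles. The shares of all genes at that unadjusted threshold are not given here for these fits. The sign changed in round muscle for PECAM1 (0.035), KDR (0.065), FLT1 (-0.020) and ANGPT1 (0.0024), in sirloin muscle for PECAM1 (-0.034), KDR (-0.086), FLT1 (-0.54) and ANGPT1 (0.16), and between the muscles for VWF (-0.011). With 4 calves a group, only large differences could be detected.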

Other observations

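Among the genes of other cell types, the 4 adipocyte genes were all above 0 for the diet in sirloin muscle, each with an unadjusted p under 0.05 (3.91% of all genes) and none past adjustment, and their summed level was 951 TPM in the library of treated replicate 4 and at most 3.10 TPM in every other library. The 6 smooth muscle genes, which mark larger vessels, were all below 0 in sirloin against round muscle, with a median log2 fold change of -0.73, and 4 of the 6 had an unadjusted p under 0.05 (6.33% of all genes), TAGLN at -0.70, CNN1 at -1.24, ACTA2 at -0.77 and MYLK at -0.50. None passed adjustment without the calf block, and with it TAGLN (-0.70, edgeR adjusted p = 0.0266) and ACTA2 (-0.69, edgeR adjusted p = 0.0438) did, where 11.2% of all genes had an unadjusted p under 0.05. The hemoglobin gene HBA had log2 fold changes of 1.48 in round and 1.59 in sirloin muscle between the diets, with unadjusted p of 0.0363 and 0.0279. In round and sirloin muscle the median log2 fold changes between the diets were -0.92 and 0.34 for 6 fibroblast genes, 0.50 and 0.96 for 5 leukocyte genes, 0.66 and -0.22 for 4 Schwann cell genes, 0.25 and -0.41 for 8 muscle fibre genes, and -0.12 and -0.44 for the platelet genes, and none of these genes was called by edgeR. In round muscle the fibroblast sum was 2141 TPM in control replicate 2, where the other control calves had 329 to 354 TPM and the treated calves 268 to 503 TPM. In sirloin muscle it was highest, at 740 TPM, in treated replicate 4.

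The genes whose level over the 16 libraries of 8 calves was most like the capillary index, of 11889 compared, were ESAM (Pearson r = 0.969), FLI1 (0.951), ABLIM3 (0.923), RNF215 (0.917), PPP1R16B (0.907) and NRADD (0.894). ESAM, an adhesion molecule, and FLI1, a transcription factor, had been listed as endothelial genes. Those most like VEGFA were ASPN (0.865), MIR3064 (0.851), GTPBP2 (0.846) and TARS1 (0.844). MIR3064 lies within DDX5, so its reads and those of that gene cannot be told apart. These values are a description over libraries that share calves and composition.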
